A study of Mus musculus with 18 samples.

Results

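Small leucine-rich proteoglycans are secreted proteins of the extracellular matrix, and 8 of their genes are described here in mouse embryonic fibroblasts: Dcn (decorin), Lum (lumican), Bgn (biglycan), Fmod (fibromodulin), Ogn (osteoglycin), Aspn (asporin), Prelp (prolargin) and Omd (osteomodulin). They were taken by symbol from the authors' deposited table, which lists 35734 genes, and all 8 were found in it. The genes were chosen by family name and with the log2 fold changes of that table in view, so they count as selected on this comparison. Those fold changes and every other RNA value of the same comparison are therefore given as a description of the 8 genes. Where edgeR's or the authors' calls of these genes are counted, they stand beside the share called over all genes and support nothing on their own.

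A small leucine-rich proteoglycan has a core protein built of leucine-rich repeats that folds into a curved solenoid, and most members carry chains of chondroitin, dermatan or keratan sulphate. The core proteins bind fibrillar collagens and influence how fibrils form and how thick they grow. Decorin, biglycan, fibromodulin and asporin also bind transforming growth factor beta, and decorin binds receptor tyrosine kinases. Connective tissue fibroblasts are the main source of decorin, which is widely used as a marker of fibroblasts.

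The fibroblasts came from the R26-M2rtTA mouse line on the C57BL/6 strain, in which the Rosa26 locus expresses a transactivator that doxycycline switches on. In both groups the cells carried doxycycline-inducible lentiviral vectors for the neuronal transcription factors Brn2 (gene Pou3f2) and Myt1l and were read after 48 h of doxycycline. The group called BM received these factors alone, and the group called BM/Ikzf1/4 also received Ikzf1 and Ikzf4, zinc finger factors of the Ikaros family. Each group held 3 RNA-seq libraries. The labels do not say whether these came from separate cultures, so errors and calls measure the spread between libraries, which may be technical. No group without any vector was used here, so nothing is known of the level before Brn2 and Myt1l.

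The 6 libraries held 34966344 to 44270426 estimated reads, and the median correlation of a library with its own group was 0.9918 to 0.9935. Both added factors matched the labels in every library. Ikzf1 stood at 1.63 to 2.38 TPM in BM and at 1588 to 2134 TPM in BM/Ikzf1/4, and Ikzf4 at 0.683 to 0.848 and 610.4 to 810.4 TPM. TPM is a share of all transcripts, scaled for transcript length and library depth, so it can be compared between genes. Pou3f2 overlapped between groups (edgeR log2 fold change -0.06, SE 0.09), while Myt1l was called higher with Ikzf1 and Ikzf4 (0.61, SE 0.13). As markers of the labelled cell type, 8 fibroblast genes summed to 8956 to 9575 TPM in BM and to 7097 to 7551 TPM in BM/Ikzf1/4. Their levels were uneven, with BM means from 5.29 TPM for Pdgfra and 24.9 TPM for Pdgfrb to 3962 TPM for Vim.

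The 8 genes split into those that were much lower with Ikzf1 and Ikzf4, those that were moderately lower and those whose groups overlapped. Dcn and Ogn stood at 29.3% and 30.1% of their BM level. Aspn, Prelp and Omd stood at 56.4%, 57.4% and 72.6%. Lum, Fmod and Bgn overlapped between the groups, and Bgn, by far the most abundant of the 8, stood at 99.3%. In these bulk samples, fewer cells that express a gene and less RNA per cell cannot be told apart.

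**Figure D1:**
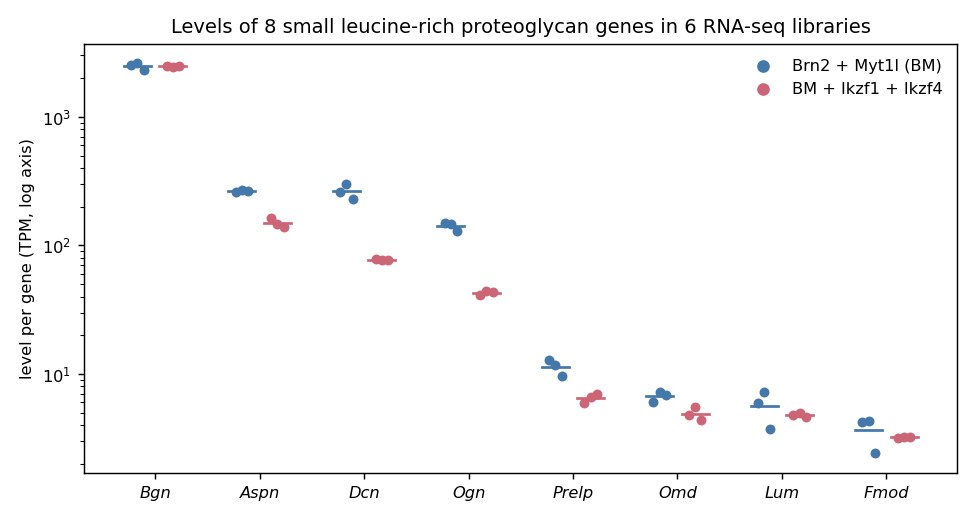
Level of each of the 8 genes in each RNA-seq library, in TPM on a log axis; points are libraries (3 per group), lines are group means, and genes are ordered by their BM mean. The points of the groups are separate for Aspn, Dcn, Ogn, Prelp and Omd and overlap for Bgn, Lum and Fmod.

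The sequence upstream of a transcript start of 4 of these genes is shown because they span the range of the response: Ogn (much lower) and its chromosomal neighbour Aspn (moderately lower), Prelp (moderately lower and on another chromosome) and Bgn (overlapping). The letters are the 250 bases before a start listed in a table of RefSeq promoter sequences on GRCm38.p6, written 5′ to 3′ on the gene's own strand. For Ogn, Aspn and Bgn this is the outer end of the RefSeq gene, while for Prelp the listed start, and with it the window, lies inside the RefSeq gene span. Of the 8 genes 6 were matched in that table, and the windows of Dcn and Lum were not used here. Capitals mark matches to the core bound by Ikaros family proteins (GGGAA, or TTCCC on the other strand). They also mark matches to the letters TATAAA of the TATA box motif (TTTATA on the other strand), wherever they lie in the window.
Ogn chr13:49607765-49608014 (+): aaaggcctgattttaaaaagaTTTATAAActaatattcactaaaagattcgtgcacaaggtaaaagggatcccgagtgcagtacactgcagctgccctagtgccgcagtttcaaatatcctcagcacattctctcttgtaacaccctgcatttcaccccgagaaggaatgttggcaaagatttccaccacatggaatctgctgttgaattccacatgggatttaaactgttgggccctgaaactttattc
Aspn chr13:49544193-49544442 (+): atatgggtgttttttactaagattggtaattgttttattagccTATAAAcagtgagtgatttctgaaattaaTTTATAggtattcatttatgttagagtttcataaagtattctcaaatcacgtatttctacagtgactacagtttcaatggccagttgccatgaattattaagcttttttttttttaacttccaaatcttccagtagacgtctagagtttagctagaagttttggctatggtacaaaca
Prelp chr1:133921402-133921651 (-): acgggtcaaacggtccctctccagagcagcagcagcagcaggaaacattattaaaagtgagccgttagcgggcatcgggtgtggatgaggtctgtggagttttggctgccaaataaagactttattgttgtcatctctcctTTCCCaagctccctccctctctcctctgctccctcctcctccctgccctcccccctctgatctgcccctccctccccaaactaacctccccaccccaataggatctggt
Bgn chrX:73483351-73483600 (+): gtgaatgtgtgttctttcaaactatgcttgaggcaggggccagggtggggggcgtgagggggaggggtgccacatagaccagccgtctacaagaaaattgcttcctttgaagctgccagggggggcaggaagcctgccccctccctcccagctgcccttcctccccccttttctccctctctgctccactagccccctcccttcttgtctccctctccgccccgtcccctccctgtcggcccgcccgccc

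These windows differ in base composition. GC content was 30.0% for Aspn, 38.4% for Omd, 42.0% for Ogn, 51.2% for Fmod, 55.6% for Prelp and 64.4% for Bgn, beside a median of 52.4% over 32851 RefSeq windows of the same length. The Ikaros core GGGAA, searched on both strands, occurred in 56.2% of all windows. Among the 6 proteoglycan windows it was found once, in Prelp, where it also makes the longer core TGGGAA (21.6% of all windows). TATAAA occurred in 12.4% of all windows, with 2 matches in Aspn and 2 overlapping ones in Ogn. The TEAD motif GGAATG (12.6% of all windows) and the core AAAGTT of the Myt1 family (12.4%) had 1 match each, both in Ogn. The AP-1 motif TGANTCA (6.75%) and the POU octamer ATGCAAAT (1.6%) had no match in the 6 windows. A match describes letters in a short window and is not a binding site, and the absence of a match says nothing of binding there or elsewhere.

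Decorin, biglycan and asporin belong to class I of the family, the members nearest in sequence to decorin. Dcn stood at 259, 302 and 230 TPM in the BM libraries and at 77.9, 76.5 and 77.2 TPM in the BM/Ikzf1/4 libraries. The groups were far apart, and the 3 libraries with Ikzf1 and Ikzf4 lay within a coefficient of variation of 0.924%, against 13.8% in BM. A spread over 3 libraries is a rough estimate, and nothing is read from this difference. The log2 fold change was -1.83 (SE 0.08) with edgeR, fitted to gene sums of reads. In its rank among 16183 genes ordered by mean TPM, Dcn went from place 584 in BM to place 2374 in BM/Ikzf1/4.

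Aspn, whose product binds collagen and inhibits transforming growth factor beta, stood level with Dcn in BM, at 262, 271 and 266 TPM. With Ikzf1 and Ikzf4 it stood at 164, 147 and 139.8 TPM, so that every library of this group lay below every BM library. Its log2 fold change was -0.88 (SE 0.06), and its rank went from 576 to 1131. Both genes thus had similar levels in BM (264 ± 36.4 TPM for Dcn and 266 ± 4.72 TPM for Aspn, SD, n = 3) and different ones in BM/Ikzf1/4 (77.2 ± 0.713 and 150.3 ± 12.5 TPM, SD, n = 3).

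Bgn stood at 2550.2, 2600.3 and 2321 TPM in BM and at 2469, 2458 and 2489 TPM in BM/Ikzf1/4. The lowest BM library lay under all 3 BM/Ikzf1/4 libraries and the other BM libraries above them, so the groups overlapped. The log2 fold change was -0.07 (SE 0.04). Biglycan is the closest relative of decorin in the family and like it carries chondroitin or dermatan sulphate. It ranked 37 of 16183 genes in BM and 33 in BM/Ikzf1/4.

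Osteoglycin, also called mimecan, belongs to class III. Ogn stood at 149, 147 and 129.7 TPM in BM and at 41.2, 44.0 and 43.2 TPM in BM/Ikzf1/4, with no overlap. Its log2 fold change of -1.79 (SE 0.06) was within 1 SE of that of Dcn, although the genes lie on different chromosomes. Its rank went from 1168 to 4205.

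Prolargin, osteomodulin, lumican and fibromodulin belong to class II, whose members carry keratan sulphate or, in prolargin, a basic stretch that binds heparan sulphate. These 4 were expressed at a low level in these fibroblasts, with means of 3.66 to 11.4 TPM in BM. Prelp stood at 12.8, 11.8 and 9.6 TPM in BM and at 5.99, 6.63 and 7.0 TPM in BM/Ikzf1/4. These groups were separate, with a log2 fold change of -0.93 (SE 0.10). Omd, known from bone matrix, stood at 6.0, 7.3 and 6.92 TPM in BM and at 4.81, 5.51 and 4.35 TPM with the added factors. Its groups were separate by a narrow gap, and the log2 fold change was -0.48 (SE 0.12).

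Lum, which spaces collagen fibrils in the cornea and other tissues, stood at 5.98, 7.2 and 3.76 TPM in BM and at 4.82, 4.99 and 4.62 TPM in BM/Ikzf1/4. Fmod, a regulator of collagen fibrils in tendon, stood at 4.25, 4.3 and 2.41 TPM in BM and at 3.17, 3.23 and 3.22 TPM with Ikzf1 and Ikzf4. For both genes BM replicates 1 and 2 lay above and BM replicate 3 below all 3 BM/Ikzf1/4 libraries. The log2 fold changes were -0.28 (SE 0.19) for Lum and -0.24 (SE 0.19) for Fmod. These rested on 213 to 323 reads of Lum and 177 to 293 reads of Fmod per library.

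BM replicate 3 held the lowest BM level of 6 of the 8 genes (Dcn, Lum, Bgn, Fmod, Ogn and Prelp), while over all 15250 genes tested it held the lowest BM level in 35.5%. Its median correlation with its own group, 0.9924, was no lower than that of the other BM libraries. Without it, the log2 fold changes were -0.51 (SE 0.11) for Lum, -0.47 (SE 0.10) for Fmod and -0.12 (SE 0.03) for Bgn. All 3 were then called lower, beside 18.8% of all genes tested in that fit. Without BM replicate 2 the value for Lum was -0.08 (SE 0.18), and without BM replicate 1 that for Fmod was -0.11 (SE 0.21). The fold changes of Dcn, Ogn, Aspn, Prelp and Omd were called lower whichever library was left out.

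**Figure D2:**
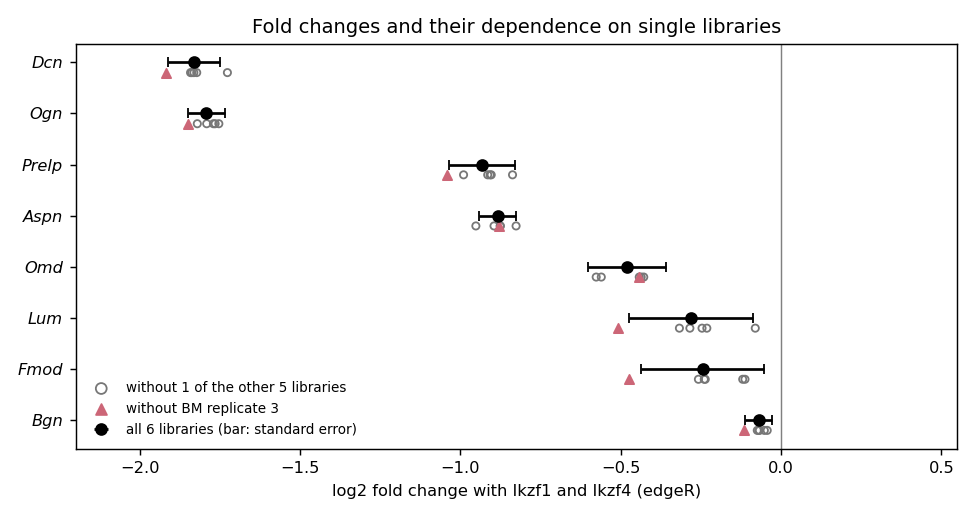
Log2 fold change of each gene with Ikzf1 and Ikzf4 (horizontal axis, edgeR), with its standard error, from all 6 libraries (black) and with 1 library left out (open circles, triangle for BM replicate 3). Dcn and Ogn lie near -1.8 in every fit, while Lum, Fmod and Bgn move away from 0 without BM replicate 3.

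With edgeR, 5 of the 8 genes were called lower at an adjusted p under 0.05 (Benjamini-Hochberg over all genes tested) and none higher. Over all 15250 genes tested, 20.9% were called lower and 41.7% in either direction. In the authors' deposited table the same 5 were called lower, beside 15.4% of 16757 genes with an adjusted p (30.6% in either direction). The TPM of the 2 groups did not overlap, with BM/Ikzf1/4 lower, for these 5 genes and for 18.1% of all genes (48.8% in either direction). Since the 8 genes were proposed with this comparison known, nothing is read from the excess. Without BM replicate 3 all 8 were called lower, beside 18.8% of all genes. The median log2 fold change was -0.68 over the 8 genes and -0.01 over all genes.

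Few genes fell as far as Dcn and Ogn. A call with a log2 fold change under -1.5 was made for 107 of the 15250 genes, or 0.702%, and both were among them. Larger falls than that of Dcn were estimated for 61 genes, and larger ones than that of Ogn for 67. Dcn and Ogn were chosen with this comparison known, so these numbers only describe them.

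Summed over the 8 genes, the level was 3249, 3352 and 2969 TPM in BM and 2771, 2746 and 2769 TPM in BM/Ikzf1/4, with no overlap. Most of this was Bgn. Without it the remaining 7 genes summed to 699.7 ± 51.3 TPM in BM and 289.8 ± 11.4 TPM in BM/Ikzf1/4 (SD, n = 3), which is 41.4%. The share of Bgn among the RNA of the 8 genes was 78.1% ± 0.462 in BM and 89.5% ± 0.403 in BM/Ikzf1/4 (SD, n = 3). The higher share of Bgn thus came with a lower sum of the other 7 genes, while Bgn itself overlapped between groups. Dcn, Ogn and Aspn made up most of that sum (672 TPM in BM and 270.3 TPM in BM/Ikzf1/4 on average). Lum and Fmod overlapped between groups too.

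For most of the 8 genes 1 transcript carried nearly all the RNA, and for Lum, Fmod and Ogn only 1 was joined to the gene. For Dcn, transcript ENSMUST00000105287.10 held 96.8% to 99.3% of the gene's TPM in the 6 libraries. A second Dcn transcript of equal length, ENSMUST00000163448.3, stood at 4.6, 6.08 and 6.77 TPM in BM and at 0.733, 0.556 and 0.993 TPM in BM/Ikzf1/4. It was lower too, and its groups did not overlap. For Bgn, ENSMUST00000033741.14 held 99.2% to 99.5%.

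Aspn and Omd had 2 measured transcripts each. The main Aspn transcript, ENSMUST00000021820.13, stood at 225, 238 and 226 TPM in BM and at 113, 101 and 101 TPM in BM/Ikzf1/4. The other, ENSMUST00000177948.1, stood at 36.3, 33.2 and 40.5 TPM in BM and at 51.2, 46.0 and 38.9 TPM with Ikzf1 and Ikzf4, and its groups overlapped. By these estimates the lower level of the gene lay in the main transcript, whose share of Aspn TPM was 86.2% ± 1.48 in BM and 69.9% ± 1.97 in BM/Ikzf1/4 (SD, n = 3), a shift of -16.4 percentage points. Among 1529 genes with a mean of at least 100 TPM and 2 or more transcripts over 60 reads, 4 had a shift of the main transcript at least as large without overlap, or 0.262%, Aspn included. This measure was chosen after the values were seen. The transcripts have 2310 and 2329 bases, and salmon divides reads that fit both by an estimate, so the split is less certain than the sum.

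The main Omd transcript, ENSMUST00000065494.7, held 61.8% to 83.3% of the gene's TPM. It stood at 4.85, 6.02 and 5.27 TPM in BM and at 4.01, 4.12 and 2.69 TPM in BM/Ikzf1/4, without overlap. ENSMUST00000221170.1 stood at 1.14, 1.29 and 1.66 TPM in BM and at 0.806, 1.39 and 1.66 TPM with the added factors, with overlap. In each library 53 to 86 reads in BM and 39 to 80 reads in BM/Ikzf1/4 lay behind the latter. A second Prelp transcript had reads in 1 library alone, BM/Ikzf1/4 replicate 3, with 18.

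**Figure D3:**
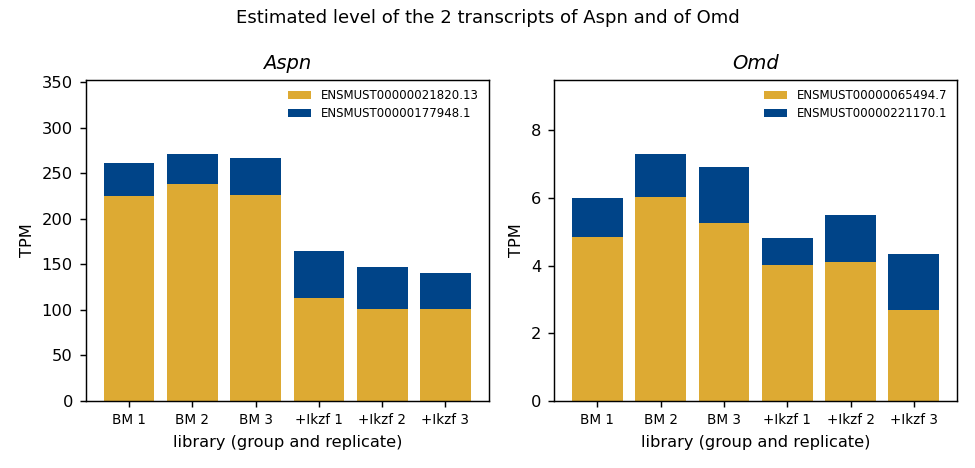
Estimated level in TPM of the 2 transcripts of Aspn (left) and of Omd (right), stacked, for each library. The main Aspn transcript drops from 225 to 238 TPM to 101 to 113 TPM, while the other stays between 33.2 and 51.2 TPM.

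All of the 8 genes but Bgn sit in clusters with other leucine-rich repeat genes, which allows neighbours to be compared. Gene order was taken from the RefSeq table of GRCm38.p6. On chromosome 10, Dcn, Lum, Kera and Epyc follow each other. Kera (keratocan, a corneal keratan sulphate proteoglycan) stood at 1.74, 1.59 and 0.876 TPM in BM and at 0.246, 0.152 and 0.205 TPM in BM/Ikzf1/4. It was called lower with a log2 fold change of -2.83 (SE 0.34), on 46 to 86 and 7 to 12 reads per library, and is singled out after its values were seen. Lum, which lies between Dcn and Kera, thus had a smaller estimate than both. Upstream, Btg1 was at -0.003 (SE 0.07) and Eea1 at 0.14 (SE 0.04).

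On chromosome 13, Ecm2, Aspn, Omd and Ogn are consecutive, with estimates of -0.95 (SE 0.29), -0.88, -0.48 and -1.79. All 4 were called lower, beside 20.9% of all genes. Aspn, Omd and Ogn were chosen with this comparison known, so nothing is read from the count. Ecm2, an extracellular matrix protein with leucine-rich repeats, had 10 to 39 reads per library, and it was not called in the authors' deposited table. Cenpp starts before Ecm2, spans Aspn and Omd and reaches within 10 kb of Ogn. It was at 0.06 (SE 0.19) and did not pass the test. Ippk, before it, was at -0.01 (SE 0.07). On the other side, Nol8 was called lower by a small amount (-0.21, SE 0.06) and Iars higher (0.37, SE 0.06).

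On chromosome 1, Optc, Prelp and Fmod are consecutive. Optc (opticin), the coding gene within 10 kb of Prelp, was at 0.00 (SE 0.13) with a mean of 5.35 TPM in BM, between the levels of Prelp and Fmod. Btg2, next to Fmod, was called lower (-0.58, SE 0.06). Bgn on chromosome X has no other small leucine-rich proteoglycan beside it. Its neighbour Haus7 was at -0.18 (SE 0.08) and did not pass the test, and Atp2b3, within 10 kb, had too few reads to be tested. Farther off, Zfp92 was called higher (2.53, SE 0.38) on a mean normalised count of 18.94. The clusters thus held members with unequal estimates. Outside the family, Btg2 and Nol8 were called lower and Eea1, Iars and Zfp92 higher, beside 20.9% lower and 20.8% higher among all genes. The other tested coding neighbours, among them Atp2b4 (0.049, SE 0.079), Dusp9 (-0.065, SE 0.178) and Pnck (0.011, SE 0.153), were not called.

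**Figure D4:**
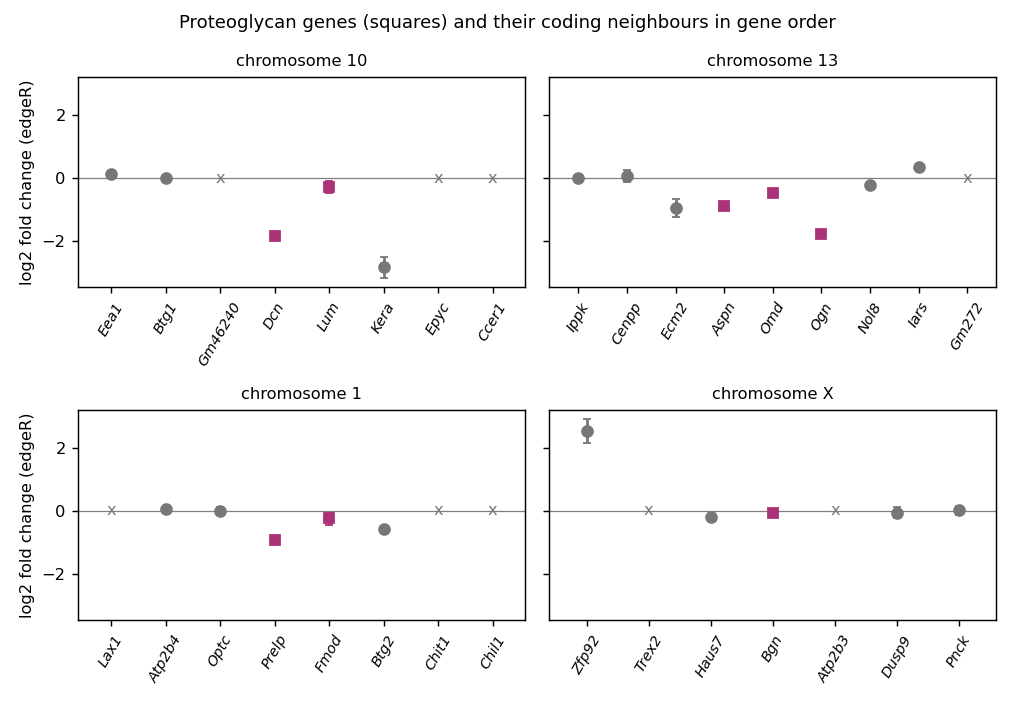
Log2 fold change (edgeR, with standard error) of the 8 genes (squares) and their coding neighbours (circles) in gene order, equally spaced; crosses on the zero line are genes not tested or not in the table. Estimates within a cluster are unequal: Lum at -0.28 lies between Dcn at -1.83 and Kera at -2.83.

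Beyond the 8 genes, 7 of 10 further leucine-rich repeat proteoglycans and relatives had enough reads to be tested with edgeR. Of these 5 were called lower and none higher, with a median of -0.72, beside 20.9% lower and 20.8% higher among all genes. Of the 8 with an adjusted p in the authors' deposited table, 2 were called lower, beside 15.4% of all genes. The edgeR count moved with single libraries: it was 3 without BM replicate 1 or 2 or BM/Ikzf1/4 replicate 2, and 2 without BM/Ikzf1/4 replicate 3, and 1 gene was called higher without BM/Ikzf1/4 replicate 2. Tsku (tsukushi, a secreted inhibitor of several growth factors) was the 1 with a mean normalised count of at least 100 that was called, at 25.4, 20.5 and 24.7 TPM in BM and 20.3, 19.7 and 18.3 TPM in BM/Ikzf1/4 (log2 fold change -0.41, SE 0.06). Kera, Podnl1, Chadl and Ecm2, the other 4 called, stood under 4 TPM in BM on average.

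Enzymes that build the sugar chains moved in both directions. Of 21 tested genes of chondroitin and dermatan sulphate synthesis, 8 were called lower and 3 higher, with a median of -0.03, beside 20.9% lower and 20.8% higher among all genes. Csgalnact1, which starts chondroitin chains on the linker, was at -1.20 (SE 0.16), and Chsy3, a chondroitin synthase, at -0.59 (SE 0.07). Csgalnact2, which catalyses the same step as Csgalnact1, was higher at 0.34 (SE 0.05), and so was Xylt1, which places the first xylose on the core protein, at 0.26 (SE 0.09). Csgalnact2 was the more abundant of that pair in both groups, at 30.9 and 40.9 TPM on average against 6.34 and 2.98 TPM for Csgalnact1. Xylt2, the other Xylt gene of the list, was called lower (-0.27, SE 0.05). It stood at 23.3 and 19.9 TPM on average, against 1.55 and 2.04 TPM for Xylt1. The count of lower calls in this list was 5 without BM replicate 1 or 2 or without BM/Ikzf1/4 replicate 1 or 2, and that of higher calls was 1 without BM replicate 1.

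Of 5 tested genes of keratan sulphate synthesis, 1 was called lower (Chst2, a sulphotransferase, -0.49, SE 0.05) and 2 higher by small amounts (B3gnt2, 0.28, SE 0.10, and B4galt1, 0.10, SE 0.03), beside 20.9% lower and 20.8% higher among all genes. No gene of this list was called higher without BM replicate 2 or 3 or without BM/Ikzf1/4 replicate 1 or 2, and 1 was without either of the other libraries.

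Of 10 collagen genes, whose products are the main partners of these proteoglycans, 7 were called lower and 1 higher, with a median of -0.36, beside 20.9% lower and 20.8% higher among all genes. Col3a1, the chain of type III collagen, was at -1.32 (SE 0.07), with 1540, 1656 and 1524 TPM in BM and 716, 642 and 606 TPM in BM/Ikzf1/4. Col5a2, a chain of the fibril-nucleating type V collagen, was at -0.77 (SE 0.06). Col12a1, a collagen on fibril surfaces, was higher at 0.52 (SE 0.10). The fall of Dcn and that of Ogn were larger on the log2 scale than that of any of these 10 collagens.

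Among 17 tested receptors and ligands that bind the proteoglycans, 5 were called lower and 4 higher, with a median of 0.00, beside 20.9% lower and 20.8% higher among all genes. Ccn2, a matricellular protein that decorin binds, was at -1.13 on the log2 scale, with 864, 753 and 926 TPM in BM and 438, 397 and 381 TPM in BM/Ikzf1/4. Egfr, a receptor tyrosine kinase bound by decorin, was at -0.42 (SE 0.07). Lrp1, an endocytic receptor that takes up decorin, was higher (0.65), at 240.4, 219.6 and 279.7 TPM against 352, 359.8 and 406 TPM, and so was the transforming growth factor beta receptor Tgfbr1 (0.32, SE 0.05). Wisp1 was not found in the table under that symbol.

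Of 8 tested proteases and related proteins that cut or process the core proteins, 6 were called lower and none higher, with a median of -0.49, beside 20.9% lower and 20.8% higher among all genes. Bmp1 (-0.11) and Mmp2 (0.02) did not pass the test. Adamts4 and Adamts5, which cleave proteoglycan cores, were at -0.94 (SE 0.09) and -0.75 (SE 0.05). Of 18 tested genes for other proteoglycan core proteins, 5 were called lower and 4 higher, with a median of 0.05, again beside 20.9% and 20.8% among all genes. Gpc2 (-0.80, SE 0.11) and Gpc6 (-0.73, SE 0.04), which are glypicans anchored to the membrane, were lower. Gpc3, another glypican (0.75, SE 0.15), and Spock2, a testican (0.67, SE 0.10), were higher. The higher calls of this list numbered 6 without BM replicate 2.

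**Figure D5:**
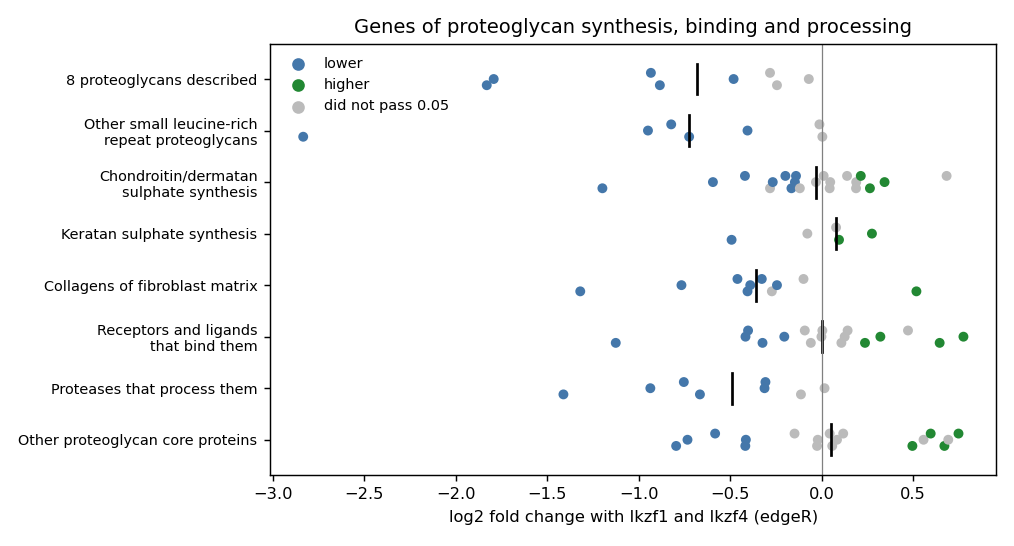
Log2 fold change (edgeR) of each tested gene, by list; blue and green points were called lower and higher at an adjusted p under 0.05, grey points were not, and black bars are medians. The 8 proteoglycans, the other leucine-rich proteoglycans, collagens and proteases have medians from -0.72 to -0.36, and the other 4 lists lie between -0.03 and 0.08.

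Markers of cell types were read beside these results. Calls in each list stand beside 20.9% lower and 20.8% higher among all genes. Of 8 fibroblast genes 6 were called lower and none higher, with a median of -0.39 (1 was called higher without BM replicate 3). Pdgfra (0.042, SE 0.073) and Fn1 (0.138, SE 0.078) did not pass the test. The TPM of Fn1 was higher in BM/Ikzf1/4 without overlap. Macrophage markers summed to 69.0 to 86.9 TPM in BM and 77.9 to 84.1 TPM in BM/Ikzf1/4, with none of 4 called (2 lower without BM replicate 1). Endothelial markers summed to 3.82 to 4.51 and 3.93 to 4.97 TPM, with none of 3 called, and Cdh5 too low to test. Epithelial markers summed to 2.4 to 2.81 and 2.79 to 3.74 TPM, with 1 of 2 called higher. Chondrocytes and osteoblasts also make several of these proteoglycans. Their markers summed to 15.2 to 23.8 TPM in BM and 24.5 to 30.5 TPM in BM/Ikzf1/4. Of 4 tested, 3 were called higher (Sox9, Runx2 and Ibsp), and 2 without BM/Ikzf1/4 replicate 1 or 2. Ibsp rested on 5, 0 and 3 reads in BM and on 15, 21 and 19 in BM/Ikzf1/4. Col2a1, the other tested gene, overlapped between groups and did not pass the test (-0.125, SE 0.269). Acan and Sp7 of that list were too low to test, with mean normalised counts of 1.383 and 5.375. The myoblast genes Myod1, Myog and Myf5 had mean normalised counts of 0.1548 to 0.1597, near 0. Des, the fourth gene of that list, stood at 1.65, 2.31 and 2.02 TPM in BM and at 0.862, 1.4 and 1.63 TPM in BM/Ikzf1/4, without overlap (log2 fold change -0.50, SE 0.19). It did not pass the test with all libraries and was called lower without BM/Ikzf1/4 replicate 3. Of the neuronal markers, Tubb3 and Syt1 were called lower (2 of 3 tested). Map2 did not pass the test (0.102, SE 0.057), and its TPM was higher in BM/Ikzf1/4 without overlap. Dcx and Snap25 were too low to test. Without BM replicate 3, 1 gene of the neuronal list was called higher. The list summed to 195 to 228 TPM in BM and 164 to 181 TPM in BM/Ikzf1/4. The part of these cell types in the levels of the 8 genes was not tested.

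Of 10696 genes with a mean of at least 5 TPM, those whose log2(TPM + 1) followed Dcn most closely over the 6 libraries were Arvcf (Pearson r 0.99942), Gm4724 (0.99925) and Armcx2 (0.99878). Their profiles mirror the BM spread of Dcn, highest in BM replicate 2 and lowest in BM replicate 3, but their changes were smaller, at -0.27 (SE 0.06), -0.43 (SE 0.06) and -0.41 (SE 0.04). Of the other 7 proteoglycans, Ogn ranked 15 by this measure (r 0.99547), Aspn 167 (0.9814), Prelp 516 (0.95711) and Omd 1306 (0.87919). Lum and Bgn had r of 0.43366 and 0.20139, and Fmod, with a mean under 5 TPM, was not ranked. The 6 points form a cluster of 3 for each group, so r rests largely on the distance between the groups and is given as a description.

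Outside the fibroblasts, chromatin over the 8 genes was read in the multiome ATAC libraries, which list transposase-cut DNA fragments of single nuclei. One is a control with mCherry from retina, labelled as Muller glia, with the alleles GLAST-CRE ERT2 and RosaYFP, and the other is titled Ikzf1/4 and names no tissue. With 1 library per group there is no test, and exact 95% intervals cover counting error only. Over all barcodes the control held 52119123 fragments and the Ikzf1/4 library 29358834. The Dcn window (the gene with 2 kb on both sides) held 635 and 339 fragments, a ratio of Ikzf1/4 to control of 0.948 (0.828 to 1.08) after scaling to these totals. The ratios of Ogn (0.904), Aspn (1.03), Prelp (0.929), Omd (0.99) and Fmod (0.988) also had intervals that included 1. The median ratio over all gene windows tested was 1.06, which lay above the interval of Prelp (0.834 to 1.03).

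Lum was at 0.768 (0.577 to 1.01) and Bgn at 0.834 (0.708 to 0.979), where the median ratio of chromosome X, on which Bgn lies, was 0.751. Both intervals lay under the median ratio of 1.06 over all gene windows. None of the 8 lay beyond 1.5-fold, beside 3.52% of 20908 gene windows under that range and 0.837% over it. Among barcodes with at least 3000 fragments (1964 and 762 barcodes), a minimum chosen with the data known, Lum held 63 and 17 fragments, a ratio of 0.326 (0.179 to 0.564). It was the 1 of the 8 beyond 1.5-fold there, beside 2.96% of 18813 windows under and 2.8% over that range. Aspn at 0.728 (0.549 to 0.959) and Prelp at 0.843 (0.73 to 0.973) had intervals below the median window ratio of these barcodes, 0.981. Over all barcodes the interval of Aspn included the median ratio, while that of Prelp lay under it there too. In the barcodes over the minimum Bgn was at 1.03 (0.797 to 1.34), where the median ratio of chromosome X was 0.873. In these barcodes Dcn was at 0.812 (0.634 to 1.04), Fmod at 0.854 (0.709 to 1.03) and Ogn at 0.905 (0.624 to 1.31). Omd was at 0.686 (0.402 to 1.15). The fragments of Lum were few, and by fragments per kb its window stood at percentile 13.8 of all gene windows in the control over all barcodes. The windows of Ogn (9.33), Omd (9.75), Dcn (12.9) and Aspn (15.5) were also at low percentiles there. Those of Bgn (48.2), Fmod (68.5) and Prelp (69.9) stood higher.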

How the data were processed

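RNA-seq of 3 BM and 3 BM/Ikzf1/4 libraries was analysed. Per the labels, RNA was quantified with salmon and compared with DESeq2. The authors deposited estimated counts and TPM per transcript and library. The authors' deposited table gives, per gene, the mean of the normalised counts (a signal), the log2 fold change and its SE, the score of the Wald test, and p-values before and after adjustment. The deposited log2 fold changes are smaller than those of edgeR at low counts, so they may be shrunken, and edgeR values are printed unless the table is named.

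The sources used here pair no transcripts with genes. Neighbouring transcripts were joined to a gene where their summed, length-corrected and size-factor-scaled reads gave the deposited mean to 9 digits. This joined 16183 of 16229 genes with a mean of at least 5, holding 99.4% of reads; with shifted means 47 genes matched. The design allowed the edgeR test where transcripts are paired with genes, and this join stands in for a table. Gene sums of rounded estimated counts were filtered (filterByExpr), scaled (TMM) and tested with edgeR 4.0.16 in R 4.3.3 (quasi-likelihood F test, threshold 0.05, no transcript-length offset), after tests on simulated data. SEs are the log2 fold change over the root of F. DESeq2 1.42.0, no filter, a replicate block and leaving out each library were alternatives.

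The 8 genes and all lists were chosen with earlier results of these data known. Named were the 8 genes, their neighbours, the 3 genes most like Dcn, and from each list at most the 2 called genes with the largest rise and the 2 with the largest fall among those with a mean normalised count of at least 100. Named outside this rule, after their values were seen, were cell type markers, Kera and Xylt2. So were list members in counts of 5 or fewer and genes of a list that did not pass the test. Fibroblast ATAC-seq at these loci was not analysed here: the submitters' processing notes name mm9 and mm10, the peak lists ran past the last mm10 fragment on several chromosomes, and gene positions of mm9 were not used here. Single-cell RNA-seq was not analysed here. Multiome fragments (mm10, Cell Ranger ARC 2.0 in the submitters' processing notes) were counted over each gene with 2 kb on both sides, using RefSeq GRCm38.p6 positions.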

Additional observations from a re-analysis of the deposited data

How the results depend on the processing

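With edgeR and all libraries, 6361 of 15250 genes tested were called (41.7%). Leaving out 1 library gave 5006 to 5873 called genes and 5 to 8 of the 8 proteoglycans called lower. All 8 were called without BM replicate 3, beside 18.8% lower among 15472 genes tested, and 5 when any other library was left out. The numbers of called genes hold both directions, so they give no share to set beside the lower calls. DESeq2 called 5744 genes and no filter on low counts 6357, each with 5 of the 8. In the authors' deposited table, 5133 of 16757 genes with an adjusted p were called (30.6%). Asking also for an absolute log2 fold change over 1 left 361 calls and 2 of the 8 genes, Dcn and Ogn, since fewer genes can pass. Requiring a mean of at least 100 left 4569 calls and 5 of the 8. With the replicate block 5683 genes were called, 5 of the 8 among them; libraries of the same number did not deviate together (r -0.07, -0.01 and 0.08), so the numbers were not taken as pairs. The alternatives planned for ATAC peaks at these loci were not run, since gene positions of the peak lists' build were not used here. The spread of Lum and Fmod in BM (coefficients of variation 30.9% and 29.5%) was wider than that of Omd (9.96%). A spread over 3 libraries is a rough estimate, and its cause was not tested.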
